A study of Mus musculus with 4 samples.

Results

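This report describes 242 regions with a called SOX3 peak in mouse testis that lay far from any transcription start site (TSS) and outside annotated repeats. SOX3, a SOX B1 transcription factor, binds DNA through an HMG box, a domain that grips the minor groove and bends the helix. In the testis it is known from spermatogonia that leave the stem cell state, and in the embryo from neural progenitors. Transcription factors often bind enhancers, stretches of DNA in introns or between genes that act on a promoter at a distance, and no measure of enhancer activity was part of these data.

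The regions came from ChIP-seq, the sequencing of DNA that is immunoprecipitated with a protein, of whole testis of strain 129/SvJ at postnatal day 7, with a goat antibody raised against human SOX3. There were 3 SOX3 ChIP samples, called replicates 1, 2 and 3, from 3 testes, and 1 input sample, which was not analysed here. The labels describe the breeding of a Sox3 null line. They state neither the genotype of each testis nor whether the testes came from separate animals. A whole testis holds germ cells and somatic cells, and the peak lists do not tell from which of them the signal of a region came.

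The submitters' table of 778 peaks common to at least 2 replicates gave each peak a class, a repeat where there was one, and the distance to the nearest TSS. The 242 regions (31.1%, exact 95% interval 27.9 to 34.5%) were those with a TSS more than 10000 bp away and no repeat in the annotation. Of the other common peaks, 250 passed the same limit of distance but were in a repeat, and 286 lay within 10000 bp of a TSS, in a repeat or not. Among the 242, 123 (50.8%, 44.3 to 57.3%) were intergenic, 113 (46.7%, 40.3 to 53.2%) were intronic, 4 lay in a 3′ UTR and 2 at the end of a transcript. The replicate lists held 2912, 2598 and 2734 peaks, and their read depth is unknown. Of the 242 regions, 196 had a peak in replicate 1, 200 in replicate 2 and 161 in replicate 3. A genome of build mm9 was not used here, so no sequence or motif of the regions is given.

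The limit of 10000 bp cut through a continuous range of distances. Just inside it were an intergenic region 10214 bp downstream of the TSS of Pfn4, a profilin gene, an intronic region 10319 bp upstream of B2m, the light chain of MHC class I, and an intergenic region 10370 bp upstream of Samt1. Just outside it, among peaks without a repeat, were an intergenic peak 9606 bp upstream of Snhg20 and a pair 9693 and 9857 bp upstream of Smchd1, a chromatin protein of X inactivation. The scores of all 6 lay between 40.3 and 98.2 where they were present. The score was given by the authors for each peak, on a scale that no source used here names. It started at about 40 in each list, and it was read only within a list.

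Distances reached much further than the limit. The median absolute distance was 36450 bp, with quartiles of 18753 and 83155 bp, and 53 regions (21.9%) were more than 100000 bp from a TSS. Intergenic regions had a median of 41288 bp and intronic ones of 34347 bp. The farthest lay 1014390 bp upstream of 1700019M22Rik, on chromosome 12 from 98299607 to 98300037, and was in all 3 lists with scores of 95.1, 90.4 and 159. Next came regions 705080 bp downstream of 5730507C01Rik and 557611 bp downstream of Prr16. With distances of this size the nearest gene is a label of place and no measured target.

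**Figure D1:**
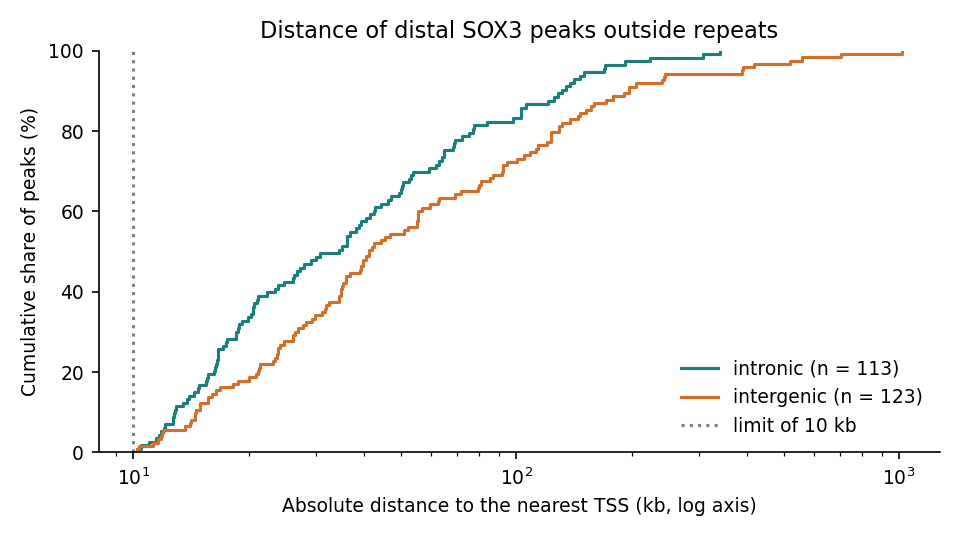
Cumulative share (%) of the 113 intronic and 123 intergenic regions against the absolute distance to the nearest TSS in kb, on a log axis, with the limit of 10 kb dotted. The medians lie at 34347 bp for intronic and 41288 bp for intergenic regions.

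Intronic and intergenic regions were found in all 3 lists at the same share. Of the intronic regions 34 of 113 were in all 3 lists (30.1%, 21.8 to 39.4%), and of the intergenic ones 37 of 123 (30.1%, 22.1 to 39.0%). Over all 778 common peaks the share was 29.9%. The difference was 0.00719 percentage points, with a 95% interval of -11.5 to 11.7 (two-sided Fisher's exact test with Benjamini-Hochberg adjustment for 3 comparisons, adjusted exact p = 1). The test therefore did not separate the classes, and its interval allows a difference of over 10 percentage points either way. Intronic regions were absent from replicate 3 in 42 of 113 cases (37.2%) and intergenic ones in 37 of 123 (30.1%), whereas replicate 1 lacked 18 and 28 of them and replicate 2 lacked 19 and 21. Leaving out replicate 1 gave a difference of -6.83 points and leaving out replicate 3 one of 7.09, neither past the threshold of 0.05 (adjusted exact p = 0.301 and 0.370). These compare shares in both remaining lists among peaks chosen with all 3, and do not measure recurrence without the replicate.

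The scores of the classes overlapped in every list. In replicate 1, 95 intronic regions had a median score of 72.9 and 95 intergenic regions one of 77.4. In replicate 2 the medians were 69.7 (94 regions) and 76.04 (102), and in replicate 3 they were 73.9 (71) and 64.1 (86). Intergenic medians were thus above intronic ones in replicates 1 and 2 and below them in replicate 3. The mean difference, intronic minus intergenic, was -0.355 ± 8.85 (SD, n = 3 lists; exact sign-flip permutation test, two-sided, p = 1, where the smallest p that 3 lists allow is 0.25). Among regions in all 3 lists the intergenic median was the higher in every replicate, with a mean difference of -37.1 (exact permutation p = 0.25). With scores of 50 or more it was also higher in every list, by a mean difference of -9.09.

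**Figure D2:**
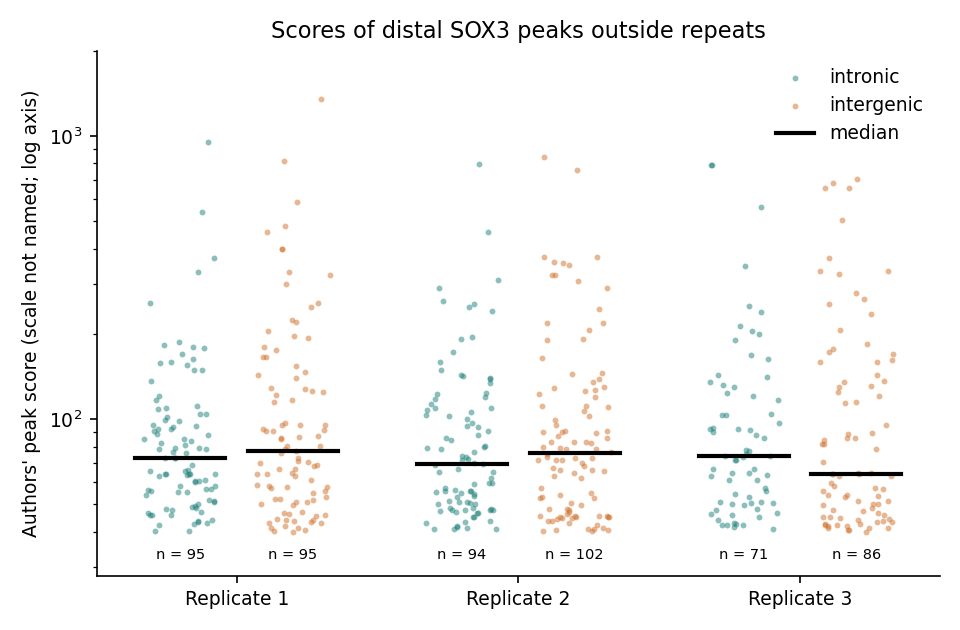
The authors' score of every intronic (teal) and intergenic (orange) region in each replicate list, on a log axis, with the median as a bar and the number of regions below. The medians lie between 64.1 and 77.4 and the points of both classes span the same range from about 40 upwards.

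In each replicate list the median peak width was slightly lower for intronic than for intergenic regions. The common peaks had the other order, with median widths of 315 bp (intronic) and 300 bp (intergenic). The replicate peaks had median widths of 287, 306 and 263 bp for intronic regions in replicates 1, 2 and 3, and of 300, 311.5 and 268.5 bp for intergenic regions. The intronic median was lower in 3 of 3 lists, by 8.00 ± 4.33 bp (SD, n = 3; exact sign-flip permutation p = 0.25, the smallest that 3 lists allow). The difference was larger among regions in all 3 lists (-75.8 bp), with limits of 20 and 50 kb (-25.0 and -48.7 bp) and with scores of 50 or more (-23.0 bp). It was -2.5 bp with peaks within 10 kb counted as 1, where replicate 2 had wider intronic peaks. With a limit of 5000 bp (-6.5 bp) or the mean over overlapping peaks (-8.42 bp), replicate 3 had wider intronic peaks. The direction turned, to 2.67 bp wider intronic peaks, when regions within 50 kb of a common peak in a small nuclear RNA (snRNA) repeat were left out, a choice made after seeing the data.

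Compared with peaks in repeats past the same limit of 10000 bp, the regions outside repeats were found in all 3 lists more often. Every common peak was in at least 2 lists, so these shares leave out peaks found in 1 list only. Of the 242 regions 73 (30.2%, 24.5 to 36.4%) were in all 3 lists, against 41 of 250 distal repeat peaks (16.4%, 12.04 to 21.6%). The repeat peaks lay farther out, at a median absolute distance of 66062 bp. The difference was 13.8 percentage points (95% interval 6.32 to 21.1, Fisher's exact test, adjusted exact p = 0.00118). The units are peaks of the same 3 libraries, so the interval and p carry no error between libraries. Replicate 2 lacked 97 (38.8%) of the distal repeat peaks and 42 (17.4%) of the regions outside repeats. Among the same common peaks, the share in both replicates 1 and 3 was 47.5% outside repeats and 55.2% in repeats (adjusted exact p = 0.156). It was 49.2 and 40% for replicates 2 and 3 (adjusted exact p = 0.069) and 63.6 and 37.6% for replicates 1 and 2 (adjusted exact p = 2.21e-08). These peaks were chosen with all 3 lists, so a list left out still decides which peaks are counted. The shares for pairs of lists, and their p-values, therefore do not measure recurrence without that list. A 50% reciprocal overlap between common peak and replicate peak gave 19.4 and 14.0% (adjusted exact p = 0.177).

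The regions were in all 3 lists less often than common peaks near a TSS. Of the 286 peaks within 10000 bp of a TSS, in a repeat or not, 119 (41.6%, 35.8 to 47.6%) were in all 3 lists. This was 11.4 percentage points more (interval of the difference, distal minus near, -19.4 to -3.22, Fisher's exact test, adjusted exact p = 0.00989). Here too the interval and p carry no error between libraries. Replicate 3 lacked 81 (33.5%) of the distal regions and 51 (17.8%) of the near peaks. Without replicate 3 the shares were 63.6 and 59.4% (adjusted exact p = 0.370), so the order turned. The call was also lost with a 50% reciprocal overlap (19.4 and 25.5%, adjusted exact p = 0.177) and with the limit set at 50 kb (26.04 and 36.3%, adjusted exact p = 0.0938).

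**Figure D3:**
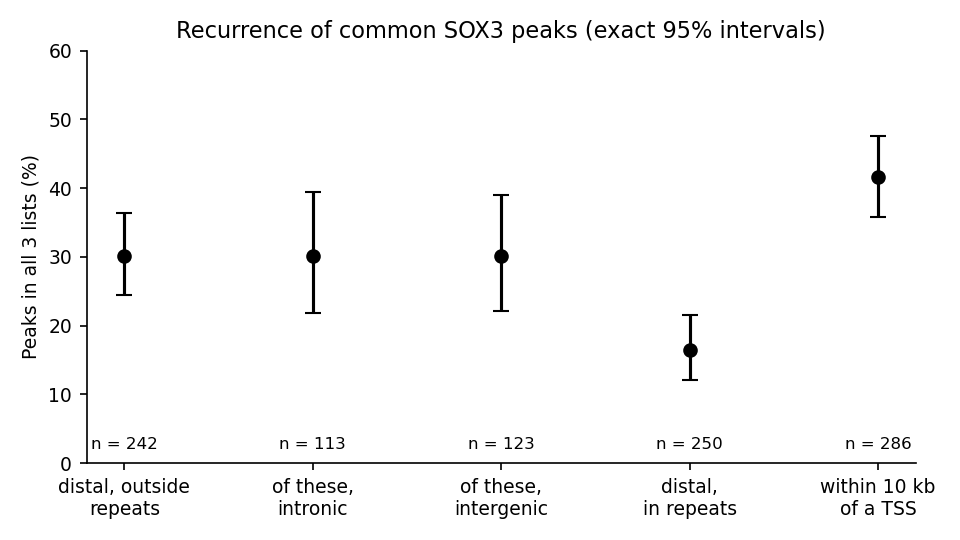
Share (%) of common peaks found in all 3 replicate lists, with exact 95% intervals and the number of peaks per group. The intervals cover counting error over peaks only. Intronic and intergenic regions outside repeats both sit at 30.1%, distal repeat peaks at 16.4% and peaks within 10 kb of a TSS at 41.6%.

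The distal regions outside repeats were most often missing from replicate 3, and the other common peaks from replicate 2. Of the distal regions outside repeats 81 were in replicates 1 and 2 only, 42 in replicates 1 and 3 only and 46 in replicates 2 and 3 only. Distal repeat peaks had 53, 97 and 59 in the same order, and peaks near a TSS had 51, 63 and 53. Among the 169 regions that 1 list lacked, the missing list had a peak within 1000 bp in 10 cases (5.92%, 2.87 to 10.6%), and its nearest peak was a median of 301376 bp away.

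**Figure D4:**
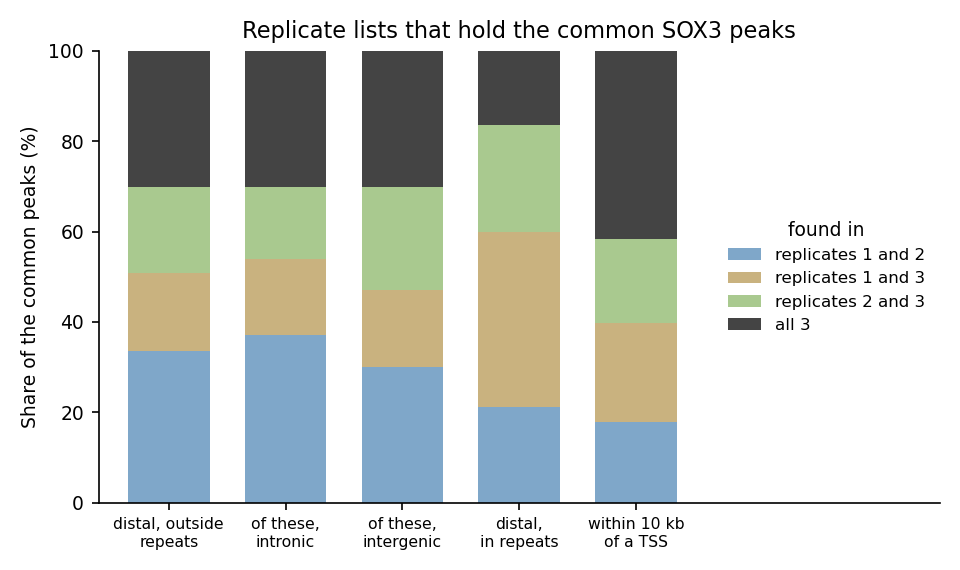
Stacked shares (%) of common peaks by the replicate lists that hold them, for 5 groups of peaks. Presence in replicates 1 and 2 alone makes up 33.5% of the distal regions outside repeats, and presence in replicates 1 and 3 alone makes up 38.8% of the distal repeat peaks.

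Scores outside repeats lay above those of distal repeat peaks in each list. The medians were 73.005, 72.4 and 70.8 in replicates 1, 2 and 3, against 58.4, 50.2 and 56.4 in repeats. The mean difference was 17.1 ± 4.44 (SD, n = 3 lists; exact sign-flip permutation p = 0.25, the smallest possible), with the same direction in 3 of 3 lists. Among peaks in all 3 lists it was the reverse, -13.3, with the regions outside repeats lower in every list. At least 1 score of 100 or more was reached by 98 of the 242 regions (40.5%), against 36.0% of all common peaks, 49 of 250 distal repeat peaks (19.6%) and 133 of 286 near peaks (46.5%). Distal peaks outside repeats were also wider than those in repeats, with list medians of 288 ± 22.1 bp against 198 ± 17.01 bp (SD, n = 3), which was not tested. Neither trait was particular to them. Peaks within 10000 bp of a TSS had median scores of 73.15, 75.29 and 74.73 in replicates 1, 2 and 3 and list medians of width of 279 ± 24.2 bp.

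Regions of higher score in a list were more often in both other lists, as common peaks were in general. Of the regions that scored below 60 in a list, 14 of 67 (20.9%) in replicate 1, 13 of 79 (16.5%) in replicate 2 and 19 of 64 (29.7%) in replicate 3 were in all 3 lists. Of those at 200 or more, 20 of 20, 20 of 23 (87.0%) and 18 of 22 (81.8%) were. Over all 778 common peaks the shares were 16.6, 19.5 and 18.7% below 60 and 93.0, 89.7 and 89.2% at 200 or more. At 200 or more, the intronic counts were 5 of 5, 6 of 8 and 7 of 8, and the intergenic ones 15 of 15, 14 of 15 and 11 of 14. Of the scores of regions in 2 lists 31.7% were under 50, close to where the lists begin, against 12.8% of the scores of regions in all 3.

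For the 73 regions in all 3 lists, Spearman's rank correlation between the scores was 0.58 for replicates 1 and 2 and 0.70 for both pairs with replicate 3. These are descriptions over regions that share their libraries. The highest score of such a region was a median of 1.79 times its lowest, and in 47 of 73 regions (64.4%) it was less than 2 times. These ratios set raw scores of different lists side by side, and the read depth of the lists is unknown. By this ratio the least even was a wide intergenic region of 4706 bp with scores of 584, 78.4 and 505. It lay 26409 bp upstream of the collagen gene Col19a1 on chromosome 1.

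The strongest intergenic region was one of 4 near Eapp, a gene for an E2F-associated protein, on chromosome 12. It spanned 55838911 to 55839950, 42578 bp upstream of the TSS, and scored 1348, 841 and 706 in replicates 1, 2 and 3. All 3 were the highest intergenic scores among the 242 regions, and peaks in repeats scored higher in each list. Nearer the gene, a region from 55819724 to 55820200 scored 323, 355 and 653, and one from 55820237 to 55820781, in an annotated CpG island, scored 457, 375 and 653. Both took their replicate 3 score from 1 peak that covered both, so they are separate in replicates 1 and 2 only. A CpG island region from 55835630 to 55836060 was weaker, at 221, 111 and 136. All 4 lay within 4060 to 7733 bp of a common peak in a snRNA repeat.

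A region near 4930529L06Rik, a noncoding gene, on chromosome 16 (84647991 to 84648749, 31664 bp upstream) had no other common peak within 50 kb. It scored 814, 759 and 684, a narrow range of raw scores. A region 32495 bp downstream of Gm5091 on chromosome 17 (15344967 to 15345538) was as even, at 331, 360 and 371. Likewise, scores of 257, 289 and 279 were found 104744 bp downstream of Gm12789 on chromosome 4 (101763904 to 101764474). A region 94845 bp downstream of 1700057H21Rik on chromosome 2 (51198321 to 51198829) had scores of 224, 244 and 254. Of the nearest genes of these 4 regions only Gm12789 was annotated as protein-coding.

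On chromosome 3 a group of 3 intergenic regions lay between 96132008 and 96178458. The region 34411 bp upstream of Fcgr1, the high-affinity IgG receptor of macrophages, was a CpG island and scored 480.05, 307 and 334. The others had Terc, the RNA of telomerase, as nearest gene, 54903 and 40626 bp from its TSS. In that order, they lay 62414 and 48137 bp from a common peak in a snRNA repeat. The Terc regions were both 656 bp wide, 14277 bp apart, and had equal scores in replicate 1 (399.96) and in replicate 2 (323), with 327 and 333 in replicate 3. This was the only pair of the 242 regions with equal scores in 2 lists or more. Another pair of equal width on 1 chromosome lay near 9030025P20Rik and Gm3448 on chromosome 17, each 1499 bp wide, 31368 bp apart, with 218 in replicate 2 for both. The scores of these were 197 and 205 in replicate 1 and 170 and 176 in replicate 3. A last pair, of 594 bp and 18932 bp apart, lay in introns of Cntnap2 and shared the score 55.4 in replicate 1. Whether such pairs are copies of 1 sequence that share reads was not tested.

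**Figure D5:**
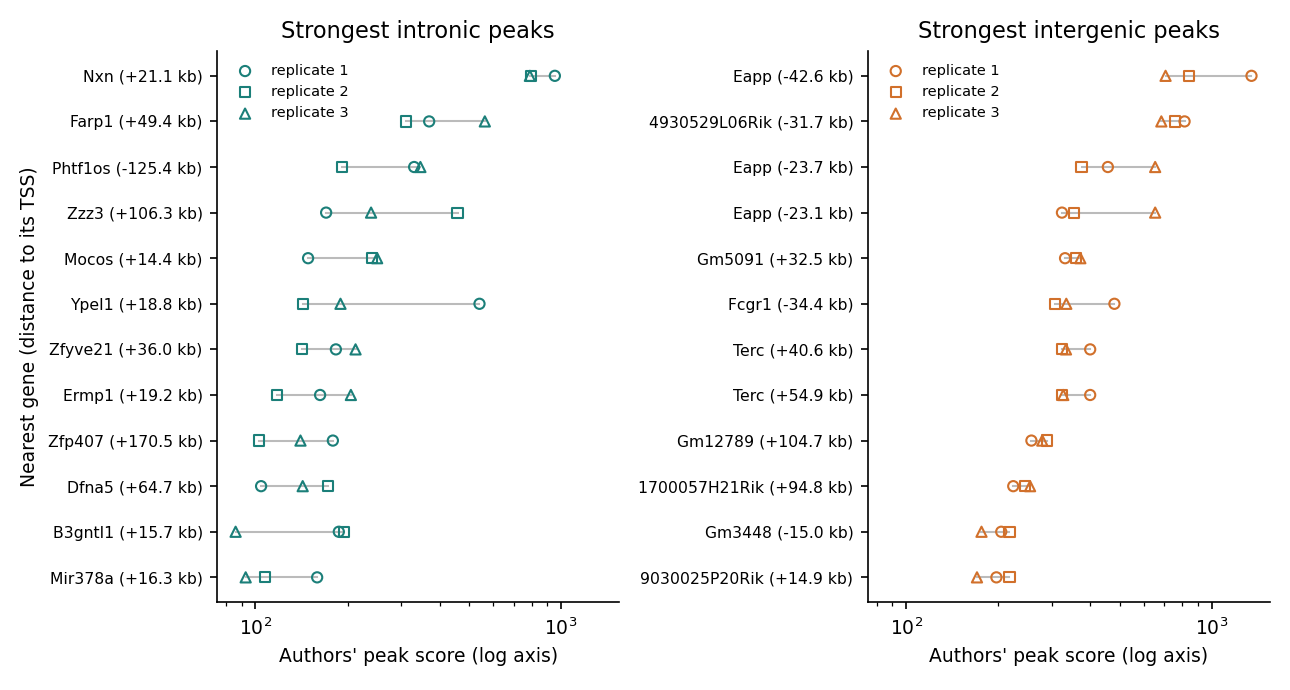
The authors' scores (log axis) of the 12 strongest intronic (left) and 12 strongest intergenic (right) regions by mean rank, each with its nearest gene and distance to the TSS in kb, negative upstream. Symbols mark the replicates and grey lines their span. Presence in all 3 lists follows from the choice by mean rank. The Nxn and 4930529L06Rik regions have narrower spans than the Eapp region at -42.6 kb, the other region with all scores above 600.

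The strongest intronic region lay in intron 1 of Nxn, the gene of nucleoredoxin, a redox protein that acts on Wnt signalling through Dishevelled. It spanned 76191173 to 76191993 on chromosome 11, 21060 bp downstream of the TSS, and its scores of 954, 798 and 790.1 were the highest of the 113 intronic regions in all 3 lists. A region of 169 bp followed it directly, from 76191996 to 76192164, with 55.6 in replicate 1 and no peak in replicate 2. Its replicate 3 score of 790.1 was that of the peak under the large region. A further intronic region 63897 bp downstream of the Nxn TSS scored 79.3 and 94.02 in replicates 1 and 2.

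Farp1, which encodes a protein with a FERM domain, followed with a region in intron 1 on chromosome 14 (121483900 to 121484504) and scores of 370.0, 311 and 563. A region in intron 3 of Magi3, a scaffold protein with PDZ domains, on chromosome 3 (103897341 to 103897866) scored 330.4, 192 and 346. Its nearest TSS was that of the noncoding Phtf1os, 125364 bp away. On the same chromosome a region in intron 9 of Ak5, an adenylate kinase, was 106326 bp downstream of the TSS of Zzz3, a subunit of a histone acetyltransferase complex. It spanned 152165619 to 152166329 and scored 170.3, 458 and 239, highest in replicate 2.

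Intronic regions at Mocos, which activates molybdenum enzymes, Ermp1, a peptidase of the endoplasmic reticulum, Zfp407, a zinc finger gene, and B3gntl1, a glycosyltransferase gene, had scores between 86.1 and 250.02. The region in intron 4 of Mocos, on chromosome 18 from 24826364 to 24826870, scored 149, 241 and 250.02. Those of Ermp1 (163, 118 and 205) and Zfp407 (179, 103 and 140.3) were lowest in replicate 2, and that of B3gntl1 (187, 195 and 86.1) in replicate 3. In the remaining regions of the 12 the host gene was again not the nearest gene. Ppp1r13b, which encodes a partner of p53, held a region nearest to Zfyve21 with scores of 183, 142 and 212. Mpp6, a membrane scaffold gene, held a CpG island region nearest to the gasdermin gene Dfna5, with 104, 173 and 143. Ppargc1b, a coactivator of mitochondrial genes, held one nearest to Mir378a, with 159, 108 and 92.9.

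A group of 4 regions lay within 50 kb on chromosome 16 at Ppil2, a gene of a ubiquitin ligase with a cyclophilin domain, and Ypel1. The main one, from 17088395 to 17089580 in intron 19 of Ppil2, scored 541, 143 and 189.7, highest in replicate 1. Beside it, a region at the end of a transcript scored 74.3 and 89.05 in replicates 1 and 3, and a region from 17090103 to 17090259 scored 46.6 and 49.7 in the same lists. The last, from 17090585 to 17090999, was in all 3 lists with 45.8, 124 and 71.7. In all, 42 of the 242 regions had another of them within 50 kb, in 14 pairs and 4 groups of 3 or more. The same count over all common peaks is not given here. Some pairs were parts of 1 replicate peak, such as those near Acot12 (6 bp apart), Peli2 (14 bp) and Ptpn1 (80 bp). The count therefore does not count separate sites. Of the 242 regions, 20 (8.26%) shared a replicate peak with another common peak. Of the other groups, 250 of 250 distal repeat peaks and 267 of 286 near peaks did not.

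The gene that held an intronic region was often not the gene with the nearest TSS. Of the 112 intronic regions whose transcript had a current symbol, 70 (62.5%, 52.9 to 71.5%) had the host gene as nearest gene and 42 did not. Intron 1 held 20 of the 113 (17.7%, 11.2 to 26.0%), against 79 of 241 intronic peaks of the whole table (32.8%) and 13 of 57 distal intronic peaks in repeats (22.8%). The whole table includes peaks close to a TSS, where intron 1 begins, and the rule takes these out. Its share is therefore not a like comparison, whereas the distal repeat peaks passed the same limit. The last intron held 10, and the median intron number was 4. By place, 88 of the intronic regions were downstream of the nearest TSS and 25 upstream, and of the intergenic regions 46 were downstream and 77 upstream. The nearest gene was protein-coding for 103 of 113 intronic regions (91.2%) and 92 of 123 intergenic ones (74.8%), and a noncoding RNA gene for 9 and 26. These splits are descriptions and were not tested. CpG islands were named for 7 regions, 1 intronic and 6 intergenic, out of 23 among all common peaks.

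The 242 regions lay on 20 chromosomes. Chromosome 12 held 20 of them, more than any other chromosome, which was 54.1% of its 37 common peaks. Chromosomes 16 and 18 had 16 and 14 (53.3 and 48.3% of their common peaks), and chromosome 13 had 12 (18.5% of 65). Chromosome X held 5 and chromosome Y none.

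Few of the regions had a nearest gene from the 18 lists of testis cell types, pathways and gene families. Such a gene was named for 8 of 242 regions (3.31%), against 83 of 778 common peaks (10.7%), of which 43 were at histone genes. The limit of distance enters this contrast, since it leaves out peaks close to a gene start. Of those lists 12 had no region, namely those of stem and undifferentiated, committed and differentiating spermatogonia, meiosis, Sertoli cells, peritubular myoid cells, endothelium, macrophages, the SOX family, neural transcription factors, Wnt, and FGF with GDNF. Over all 778 common peaks these 12 lists had between 0 and 2 peaks each. Histone genes had 43 common peaks but 1 of the distal regions, in an intron of H2afy, the macroH2A1 gene, 36904 bp downstream of its TSS (93.7 in replicate 1, 135 in replicate 3). Splicing and hnRNP genes had 11 common peaks and 1 distal region, in an intron of Hnrnpm, 10485 bp downstream of its TSS, which was in all 3 lists at 110, 80.7 and 46.8.

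The other list members were in 2 lists each. An intronic region at Lhcgr, the luteinizing hormone receptor of Leydig cells, was 16602 bp downstream of the TSS on chromosome 17 (89174553 to 89174875) and scored 48.6 and 55.5 in replicates 1 and 2. It was the only common peak with a nearest gene of the Leydig cell list. Maml2, a coactivator of Notch, had an intergenic region 85378 bp upstream with 40.7 and 57.1 in replicates 2 and 3. Among the 60 adhesion and synapse genes, Cntn5, a contactin, had an intronic region 339705 bp from its TSS (63.9 and 78.3 in replicates 1 and 2), and Cntnap2, a neurexin relative, had the pair above. The olfactory receptor gene Olfr161 was 418285 bp from an intergenic region that scored 40.5 and 44.7 in replicates 1 and 2, near the lowest scores of those lists. Adhesion and synapse genes had 3 of the 242 regions and 12 of the 778 common peaks. Notch genes had 1 region and 2 common peaks, and olfactory receptors 1 region and 7 common peaks. An intergenic region 35944 bp downstream of Ddit4, an inhibitor of mTORC1, scored 76.0, 49.6 and 42.1 and was in all 3 lists; Ddit4 was in none of the 18 lists and is named after its values were seen.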

How the data were processed

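The data were the deposited peak lists of 3 SOX3 ChIP samples and the authors' annotated table of common peaks. Per the labels' protocols, formaldehyde (1%, 8 min) fixed the tissue, sonication took 15 min, and single reads had 50 bp. Per the submitters' processing notes, Bowtie2 2.0.0 and build mm9 were used. Peak names begin with MACS. Not given in the sources used here are the peak-calling settings and the handling of duplicate and multiply mapping reads. Both can change peaks in copied sequence. The score deposited by the authors is per peak, and groups of regions were compared by it within lists. Ratios and rank correlations for single regions used scores of different lists. The class, repeat and distance in bp come from HOMER's annotatePeaks.pl, per the file headers. That table's own deposited score held only 0 and was left out.

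With Python 3.11.15 and scipy 1.17.1, a common peak was assigned to a list by an overlap of at least 1 bp and took the highest overlapping score. Coordinates are 1-based. Shares carry exact Clopper-Pearson 95% intervals and differences of shares Newcombe intervals, for counting error only. Fisher's tests take peaks of the same 3 libraries as units, so their p-values carry no error between libraries. Where score differences were tested, the lists were the units. The overlap code was tested on simulated data. Named were the 12 intronic and 12 intergenic regions of best mean rank (an absent peak ranked after the list's last), members of fixed gene lists (up to 6 per list), the 3 nearest to and 3 farthest from a TSS, the peaks at the limit, groups of 3 or more within 50 kb, and pairs with equal scores in at least 2 lists. The regions, lists and tests were chosen with earlier results of these data known. Host symbols come from the RefSeq table of GRCm38.p6, used for names only.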

Additional observations from a re-analysis of the deposited data

How the results depend on the processing

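The number of lists, 3, and the unknown read depth limit precision, and the sign-flip tests cannot pass 0.05. The number of distal regions outside repeats moved from 242 to 96 with the limit at 50 kb. Where 1 replicate is left out below, the common peaks stayed those chosen with all 3 lists. Such recurrence differences compare shares in both remaining lists and do not measure recurrence without the replicate. The difference in recurrence between intronic and intergenic regions, close to 0, changed sign in most settings without passing the threshold: it was -3.44 percentage points with a 50% reciprocal overlap, -2.41 with scores of 50 or more, -0.246 with peaks within 10 kb counted as 1, -0.804, -1.36 and -1.79 with limits of 5000, 20000 and 50000 bp, and -6.83 to 7.09 with 1 replicate left out. Against distal repeat peaks the difference was 5.42 with a 50% reciprocal overlap, where the adjusted p of Fisher's test was above 0.05, and -7.68 to 26.04 with 1 replicate left out. Against peaks near a TSS it was -6.10 with a 50% reciprocal overlap and -10.3 at 50 kb, both above 0.05 by adjusted p, and -16.1 to 4.2 with 1 replicate left out. The score difference between intronic and intergenic regions turned to 2.51 with peaks within 10 kb counted as 1 and to 0.998, 4.36 and 1.62 at 5000, 20000 and 50000 bp, with a range of -5.44 to 2.65 with 1 replicate left out. It was -9.09 with scores of 50 or more and -37.1 among regions in all 3 lists. The score difference against distal repeat peaks turned to -13.3 among peaks in all 3 lists and was 14.5 to 18.4 with 1 replicate left out. The width difference was -75.8 bp among regions in all 3 lists, -25.0 and -48.7 bp at 20000 and 50000 bp and -23.0 bp with scores of 50 or more, and -9.25 to -5.50 bp with 1 replicate left out. It was -2.5 bp with peaks within 10 kb counted as 1 and -6.5 bp at 5000 bp, without the same direction in every list. With common peaks that share a replicate peak left out, chosen after seeing the data, the recurrence and score differences between intronic and intergenic regions were -0.204 and 0.263. With those within 50 kb of a snRNA repeat peak left out, also chosen afterwards, the score and width differences were 2.82 and 2.67. The cause of these changes was not tested, except that limits change which peaks enter. No paired analysis was possible because only 1 group of samples was analysed, so no replicates of different groups could be paired. Score and width differences were taken within each list.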

Other observations

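Some regions that 1 list lacked had a high score in another list; they were chosen after their values were seen. An intergenic region of 154 bp, 557611 bp downstream of Prr16 on chromosome 18 (51835087 to 51835240), scored 41.4 in replicate 1 and 375 in replicate 2, with no peak in replicate 3. An intronic region of 158 bp in Adamts12, a secreted metalloprotease gene, on chromosome 15 (11259967 to 11260124), with Tars as nearest gene, scored 40.3 in replicate 1 and 261 in replicate 2. On chromosome 8, from 10676258 to 10676741, a region near B930025P03Rik scored 191 in replicate 2 and 265 in replicate 3, with no peak in replicate 1. The widest region, of 8188 bp near G530011O06Rik on chromosome X, scored 50.9 and 51.3 in replicates 1 and 3.

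A few other regions are named by their nearest gene, again chosen after their values were seen and with no count or test of a group. Ets2, an ETS family factor, had a pair of intergenic regions, 55347 and 71933 bp downstream, with 126 and 72.75 in replicates 1 and 2 and 40.05 and 63.1 in replicates 1 and 3. Klf10, a zinc finger factor of TGF-beta signalling, had one 18177 bp downstream with 115 and 64.3 in replicates 1 and 3. Arid1b, a subunit of the BAF remodelling complex, held one in intron 1 with 120.3 and 77.3 in replicates 1 and 3. Odc1, the ornithine decarboxylase of polyamine synthesis, had an intergenic region 11821 bp upstream in all 3 lists, with 128, 72.8 and 161.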
